A study of Homo sapiens with 2 samples.

Results

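Solute carriers are membrane proteins that move amino acids, sugars, ions, metals, vitamins and metabolites across the cell surface and the membranes of organelles. Their genes carry the prefix SLC and a family number, and carriers of a family share sequence but can differ in substrate, direction and location. In the gut epithelium they take up nutrients, and in colorectal tumour lines carriers of glucose, lactate and amino acids supply growth. The genes described here were those whose symbol in the authors' deposited table starts with SLC and a digit, without SLC9A3R1 and SLC9A3R2, which name scaffold proteins. These were 302 probes for 249 genes, of 14900 genes that the table names. Of the 249 symbols, 7 name no carrier (the transcription factor SLC2A4RG, the adaptor SLC4A1AP, the genes SLC7A6OS and SLC22A18AS beside carrier genes, and the pseudogenes SLC6A10P, SLC7A5P1 and SLC22A20), and the other 242 fall into 44 families.

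The study held 2 single-colour Agilent arrays. One was of HCT116, a human colorectal carcinoma cell line, 48 h after Lipofectamine transfection of a miR-204-5p mimic, and the other was of HCT116 cells transfected in the same way with a negative control RNA. With 1 array per group, no difference could be tested, and each value describes these arrays only. Intensities are given after both arrays were scaled to a common 75th percentile, and differences are log2 scaled intensity, mimic minus control. Levels are compared within a gene, since probes differ in brightness for reasons other than RNA amount. In bulk RNA, fewer cells of a type and less RNA per cell cannot be told apart.

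The mature miR-204-5p sequence is shown because its seed, the bases that pair with target transcripts, is what the mimic shares with the related miR-211-5p. Bases 2 to 8 are in capitals. Both are from RefSeq on GRCh38.p14, on the minus strand of chr9:70810031-70810052 and of chr15:31065095-31065116, and no other mature human miRNA in that table has this seed. Target sites in the carrier transcripts were not analysed here.
hsa-miR-204-5p: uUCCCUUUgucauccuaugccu
hsa-miR-211-5p: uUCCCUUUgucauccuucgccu

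The markers of the labelled cell type differed between the arrays. Of 10 colorectal epithelial markers, 7 of them in the authors' table, 5 exceeded the control by 2-fold or more and 0 were below it by as much. Their intensities summed to 213204 on the mimic array against 30653 on the control, and 2 were under 10 times the negative-control median with the mimic and 4 with the control. CDH1, the adhesion protein E-cadherin, had 11324 with the mimic against 36.6 with the control, under 10 times the negative-control median there. CDX2, an intestinal transcription factor outside the authors' table, had 1255 with the mimic against 5.14 with the control, and VIL1 and LGR5 were near the floor on both arrays. EPCAM had 65569 with the mimic against 608 with the control, KRT19 had 79450 against 6112, and KRT8 had 11770 against 1430. KRT18 was bright on both arrays, at 43600 with the mimic against 22142 with the control, and made up most of the control sum. KRT18 (0.98), KRT20 (-0.48) and CDX1 (-0.44) lay within 2-fold. On the opposite side, the mesenchymal filament gene VIM had 1279 with the mimic against 163211 with the control, and of 7 mesenchymal markers 4 were at least 2-fold lower and 2 higher. The 4 lower ones (VIM, ZEB1, COL1A2 and PDGFRB) have a recomputed probe, as defined in the next paragraph, so that only their control values are shown to be measured. The higher ones were COL1A1, at 487 with the mimic against 75.3 with the control, and ACTA2, at 418 with the mimic against 119 with the control. The list summed to 3072 (mimic) and 182463 (control), and nearly all of the control sum came from VIM (163211) and ZEB1 (18685). FN1 was near the floor on both arrays, at 10.2 with the mimic and 16.9 with the control. On CDH1, CDX2 and VIM the array labelled control goes against its HCT116 label, although it held keratin signal, most of it from KRT18. The part of this in the carrier differences below was not tested, and mimic transfection cannot be told apart from any other difference between the arrays.

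A further property of the deposited values bears on many lower carriers. For 15 of the 302 carrier probes (4.97%, against 6.73% of all 20291 table probes), the product of the raw control intensity and the fold given by the authors' deposited table returned the raw mimic intensity to within 1e-06 of its size. Such probes are called recomputed here, and they stand behind 14 genes. They are the 15 carrier probes that the authors' table marks Down. They are also the 15 with the largest negative differences: the recomputed probe nearest 0 lay at -1.61, and the lowest of the other carrier probes lay at -1.58. This follows the mark. Down-marked carrier probes ended at an authors' fold of 0.500 (SLC39A8), and Up-marked ones began at 0.512 (SLC26A7). Of the Up-marked carrier probes, 57 had a fold below 1. On the mimic array 359 of 383 carrier spots were 1.2 times a number of 7 significant digits, and the spots off this pattern belonged to 15 probes, all 15 of them recomputed. For these genes the mimic value is therefore not shown to be a separate measurement.

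**Figure D1:**
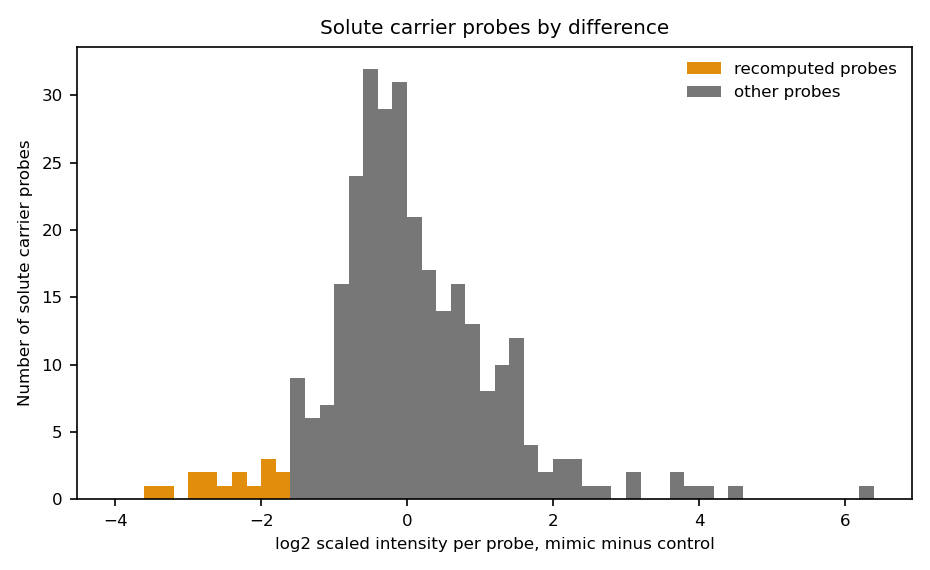
Number of solute carrier probes (y axis) by log2 scaled intensity per probe, mimic minus control (x axis), with the 15 recomputed probes stacked apart from the others. The recomputed probes end at -1.61 and the other probes begin at -1.58, while the higher side reaches 6.29 with no recomputed probe.

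Carriers differed in both directions. Of the 249 genes, 42 (16.9%) exceeded the control by 2-fold or more, against 14.0% of all genes, and 33 (13.3%) were lower by 2-fold or more, against 14.3% of all genes. The remaining 174 lay within 2-fold. Without the 7 symbols that name no carrier, 40 were higher and 33 lower. Both shares are near those of all genes. The median difference was -0.14, against -0.05 for all 14900 genes, and the quartiles of carriers, -0.61 and 0.61, were close to those of all genes, -0.58 and 0.54. Of the 33 lower genes, 14 had a recomputed probe. Without those probes 19 of 239 carrier genes were lower, where 7.63% of all genes were, and 42 were higher, where 15.0% of all genes were. Among the 113 carriers above the median intensity of all genes, 22 (19.5%) were higher, against 12.6% of all genes of that brightness, and 15 (13.3%) were lower, against 14.2%. With the authors' deposited normalized values, 80 of the 249 were higher, against 30.9% of all genes, and 12 were lower, against 6.83%, and the median of all genes was 0.58. Higher genes were then 87.0% of those past 2-fold, in place of 56.0%, a shift shared with all genes. Of the 33 lower genes, 21 came within 2-fold under those values, at -0.99 to -0.26, and these included all 19 without a recomputed probe.

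**Figure D2:**
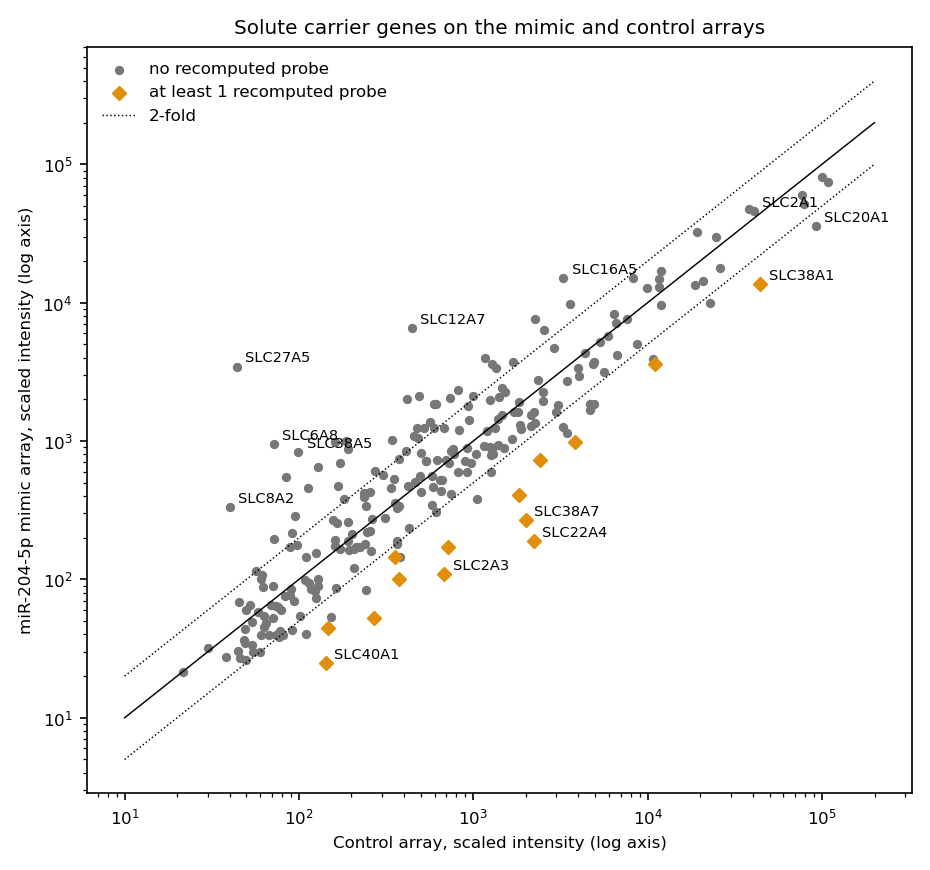
Scaled intensity of the 249 solute carrier genes on the mimic array (y axis) and the control array (x axis), both on log axes, 1 point per gene, with the line of equality and dotted 2-fold lines. SLC27A5 and SLC12A7 lie furthest above the line, and the genes furthest below it, among them SLC22A4 and SLC38A7, have a recomputed probe.

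Technical spread could be judged only from repeated spots and repeated probes. Over the 999 array probes with at least 8 spots, the SD of the log2 difference over spots had a median of 0.077. The 9 carrier probes printed as 10 spots had SDs from 0.071 (SLC5A6) to 0.840 (SLC26A3). The SLC26A3 probe is dim, at 30.0 with the mimic against 60.0 with the control. Of the 49 carriers with several probes, 12 had probes in both directions, and the median gap between the highest and lowest probe was 0.51.

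Among fatty acid transport proteins, SLC27A5 stood furthest above the control of all 249 genes. SLC27A5 encodes a liver enzyme that joins bile acids and very long fatty acids to coenzyme A. Its scaled intensity was 3448 with the mimic against 44.0 with the control, a difference of 6.29. The control value is near the floor (less than 10 times its negative-control median), and the difference was 5.52 with a constant of 32 added and 7.19 with the deposited values. The gene lies on chromosome 19 from 58498333 to 58511992 on GRCh38.p14. The related SLC27A3 had 287 with the mimic against 94.8 with the control, and SLC27A4, a fatty acid carrier of the intestine, had 217 with the mimic against 91.2 with the control. SLC27A1 lay at 0.79, and its pair of probes disagreed in direction (-0.09 and 1.66). Of the 4 family members in the authors' table, 3 were at least 2-fold higher, against 14.0% of all genes, and 0 lower, against 14.3%.

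Vitamin carriers included both folate carriers of the plasma membrane. SLC19A1, the reduced folate carrier that also takes up methotrexate, averaged 554 with the mimic against 84.2 with the control over a pair of probes of unlike size. The probe on chromosome 21 from 46935085 to 46935144 had 1888 with the mimic against 77.7 with the control, and that from 46945751 to 46945810 had 163 with the mimic against 91.3 with the control (coordinates as in the authors' table, genome build not given in the sources used here). SLC46A1, the proton-coupled folate carrier of the intestine, had 1845 with the mimic against 592 with the control, a difference of 1.64. The choline carrier-like genes SLC44A2 and SLC44A3 were 4.27-fold and 4.04-fold higher, whereas SLC44A5 was 2.10-fold lower at dim levels of 43.3 with the mimic against 90.9 with the control.

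The organic cation carriers SLC22A4 and SLC22A5 are neighbours on chromosome 5 and lay on opposite sides of the control. SLC22A4, which takes up the antioxidant ergothioneine and spans 132294394 to 132344190, had 189 with the mimic against 2230 with the control. At 11.8-fold it was the carrier furthest below the control, from a recomputed probe. SLC22A5, the carnitine carrier, spans 132369710 to 132395612 (both on GRCh38.p14) and had a difference of 0.71, within 2-fold (1.34 with the deposited values). SLC22A15 was 2.59-fold lower, at 1264 with the mimic against 3271 with the control and no recomputed probe, and lay at -0.94 when probes outside the authors' table were averaged in. SLC22A18 and the gene antisense to it, SLC22A18AS, were higher by 2.50-fold and 2.39-fold, and whether their probes tell the strands apart was not tested. In the whole group of organic ion, bile acid, lipid and vitamin carriers, 8 of 32 were higher and 4 were lower, with a median of -0.16. These shares were 25.0% and 12.5%, against 14.0% and 14.3% of all genes.

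Carriers of potassium, sodium, chloride and calcium held 5 higher genes (41.7%, all genes 14.0%) and 0 lower (all genes 14.3%) of 12. SLC12A7, a potassium-chloride cotransporter that releases salt from swollen cells, had 6554 with the mimic against 445 with the control, 14.7-fold higher. A further SLC12A7 probe, outside the authors' table, was near the floor on both arrays, at 6.41 with the mimic and 15.9 with the control, and with it averaged in the difference of 3.88 became 1.29. SLC12A2, the sodium-potassium-chloride cotransporter that loads epithelial cells with chloride, had 2038 with the mimic against 731 with the control, 2.79-fold higher. The other 4 members of that family in the authors' table lay within 2-fold, SLC12A3, the thiazide-sensitive cotransporter of the kidney, at -0.21. Among calcium exchangers, SLC8A2 had 333 with the mimic against 40.2 with the control, which is near the floor, and its difference of 3.05 was 2.34 with a constant of 32 added. SLC24A1 was 2.83-fold higher, and SLC24A6, now named SLC8B1, the mitochondrial sodium/calcium exchanger, was 2.09-fold higher. The median of the group was 0.03.

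**Figure D3:**
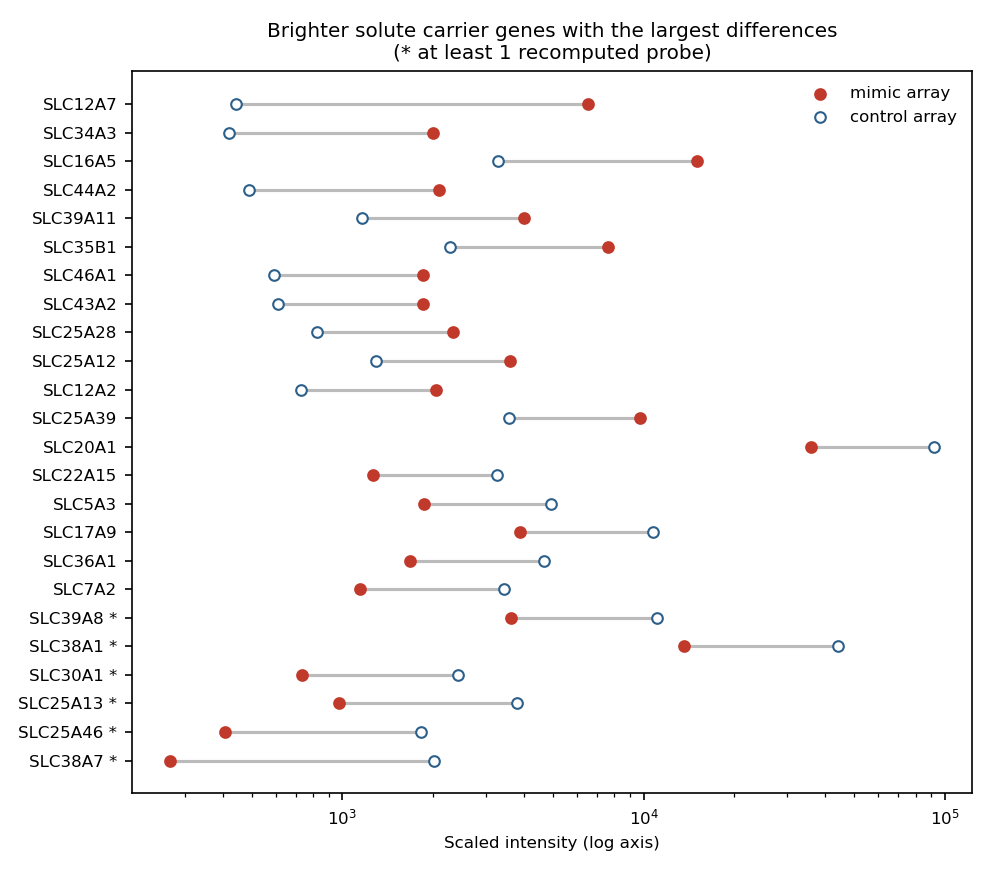
Scaled intensity on the mimic array (filled) and the control array (open), log axis, of the 12 carriers furthest above and the 12 furthest below the control among carriers brighter than the median gene and with no table probes of opposite sign. SLC12A7 is at the top at 6554 with the mimic against 445 with the control, and 6 of the lower genes, marked with an asterisk, have a recomputed probe.

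Amino acid carriers held 5 higher and 8 lower genes of 43, with a median of -0.31. These shares were 11.6% and 18.6%, against 14.0% and 14.3% of all genes. The glutamine carriers of family 38 went furthest apart. SLC38A5, which exchanges glutamine and serine for protons, had 834 with the mimic against 99.0 with the control, 8.43-fold higher. SLC38A7, a lysosomal glutamine and asparagine exporter, had 268 with the mimic against 2007 with the control, 7.48-fold lower from a recomputed probe. SLC38A1, a glutamine importer of the plasma membrane, averaged 13586 with the mimic against 44268 with the control. Its recomputed probe had 5518 with the mimic against 33695 with the control, a difference of -2.61, whereas its other probe had 33452 with the mimic against 58158 with the control, a difference of -0.80 and so within 2-fold. SLC38A2, which amino acid starvation induces, was within 2-fold, at 13311 with the mimic against 18614 with the control.

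SLC6A8 carries creatine into cells. It averaged 944 with the mimic against 71.5 with the control, 13.2-fold higher, and its pair of probes had differences of 3.71 and 3.74. The authors' table places 1 of the pair on chromosome X, where SLC6A8 lies, and the other on chromosome 16 from 33784669 to 33784728. RefSeq places the near-identical pseudogene SLC6A10P on chromosome 16 too, and the authors' table places 1 of its probes from 32894810 to 32894869. For SLC6A10P, 1 probe had 700 with the mimic against 40.9 with the control and the other had 1110 with the mimic against 894 with the control. Whether these probes tell the gene from its copy was not tested. SLC1A1, a glutamate and cysteine carrier, had 992 with the mimic against 161 with the control, 6.18-fold higher. SLC43A2, an exporter of large neutral amino acids, had 1845 with the mimic against 609 with the control.

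Of the 8 lower amino acid carriers 5 had no recomputed probe, the brighter of them SLC7A2 and SLC36A1 and the others SLC1A7 (-1.52), SLC3A1 (-1.45) and SLC6A13 (-1.03). SLC7A2, a carrier of arginine and lysine, had 1147 with the mimic against 3426 with the control, 2.99-fold lower. SLC36A1, a proton-coupled carrier that exports small amino acids from lysosomes, had 1673 with the mimic against 4654 with the control, 2.78-fold lower. The carriers best known from tumour cells lay within 2-fold after the scaling used here. SLC7A5, which imports leucine and other large neutral amino acids, had 32205 with the mimic against 19250 with the control, a difference of 0.74. Its heavy chain SLC3A2 had a difference of 0.35, the glutamine carrier SLC1A5 one of 0.22, and the cystine carrier SLC7A11, which also pairs with SLC3A2, one of -0.54. With the deposited values, where the median of all genes was 0.58, SLC7A5 lay at 1.41 and SLC3A2 at 1.07, past 2-fold. SLC1A5 (0.86) and SLC7A11 (0.17) stayed within it.

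The glucose carrier SLC2A1 and the lactate carrier SLC16A3 were within 2-fold, and several relatives were not. SLC2A1, the widespread glucose carrier GLUT1, had 45610 with the mimic against 40685 with the control, 1.12-fold higher. SLC2A3, the high-affinity glucose carrier GLUT3, had 110 with the mimic against 682 with the control, 6.21-fold lower from a recomputed probe. Its probe outside the table had 10.6 with the mimic against 25.3 with the control, near the floor on both arrays, and with it averaged in the difference of -2.64 became -1.95. SLC16A3, which exports lactate, was 1.24-fold higher, at 47255 with the mimic against 38163 with the control, and SLC16A1, which carries lactate and pyruvate both ways, was 2.42-fold higher, at 1363 with the mimic against 564 with the control. Among their relatives, SLC16A5 had 14991 with the mimic against 3286 with the control, and SLC16A9 had 652 with the mimic against 128 with the control, being 4.56-fold and 5.11-fold higher. SLC16A7, a high-affinity pyruvate carrier, was 3.73-fold lower from a recomputed probe. Of 22 carriers grouped as sugar carriers by family number, 4 were higher (18.2%, all genes 14.0%) and 3 lower (13.6%, all genes 14.3%). The inositol carrier SLC5A3 was 2.66-fold lower, at 1859 with the mimic against 4938 with the control. SLC37A4, which brings glucose 6-phosphate into the endoplasmic reticulum, was 2.40-fold higher, while SLC37A2 was 3.32-fold lower as the mean of a recomputed probe (-2.87) and another (-0.59).

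Phosphate carriers were divided within a family of 2 measured genes. SLC20A1, a sodium-phosphate cotransporter that also serves as a receptor for retroviruses, had 35834 with the mimic against 91870 with the control, 2.56-fold lower with no recomputed probe. Its relative SLC20A2 had 3349 with the mimic against 1343 with the control, 2.49-fold higher. SLC34A3, a phosphate carrier of the kidney, was 4.79-fold higher (2.26, and 1.14 with a probe outside the table, at background on both arrays, averaged in), at 2006 with the mimic against 419 with the control. SLC17A9, which loads ATP into vesicles, was 2.76-fold lower, at 3900 with the mimic against 10770 with the control. Of the 20 carboxylate and phosphate carriers, 6 were higher and 3 were lower, with a median of 0.04. These shares were 30.0% and 15.0%, against 14.0% and 14.3% of all genes.

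**Figure D4:**
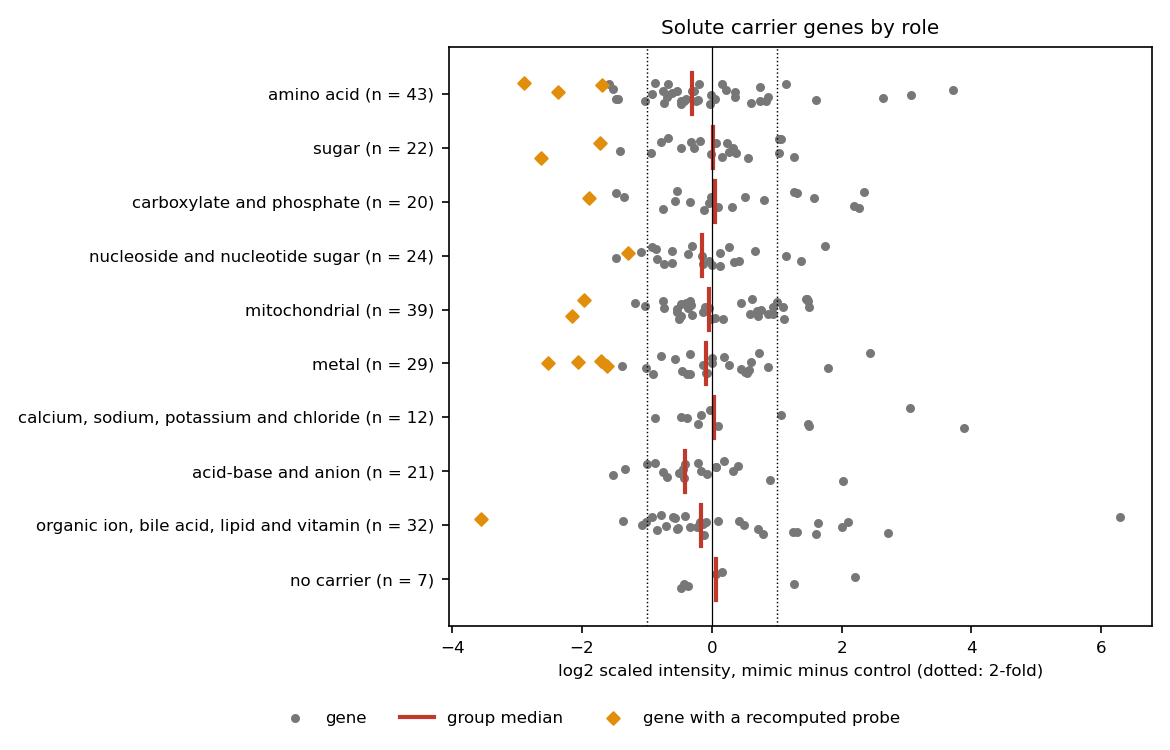
Log2 scaled intensity, mimic minus control (x axis), of each of the 249 genes by role (rows), with the group median as a bar and dotted lines at 2-fold. Medians lie between -0.42 (acid-base and anion) and 0.07 (symbols that name no carrier), and genes with a recomputed probe form the lower ends of 6 rows and lie within the lower part of the nucleoside and nucleotide sugar row.

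The 29 metal carriers, with a median difference of -0.09, held 6 lower genes (20.7%, all genes 14.3%) and 2 higher (6.90%, all genes 14.0%). The lower ones were 4 zinc carriers, the iron exporter and, just past 2-fold at -1.01, the copper importer SLC31A1. SLC30A1, the zinc exporter of the plasma membrane, had 735 with the mimic against 2412 with the control, 3.28-fold lower. SLC39A8, which imports zinc and manganese, had 3629 with the mimic against 11088 with the control, 3.06-fold lower, and its difference of -1.61 was -2.34 with a probe outside the table averaged in. SLC30A7, a zinc carrier of the Golgi, averaged 171 with the mimic against 715 with the control, but its recomputed probe had a difference of -3.25 and its other probe one of -0.88. Ferroportin, SLC40A1, the exporter of iron, had 25.0 with the mimic against 143 with the control, near the floor on the mimic array, and its difference of -2.52 was -1.62 with a constant of 32 added. All 4 of these genes have a recomputed probe, whereas SLC39A9, at -1.39, has none. In the other direction, SLC30A3, which fills synaptic vesicles with zinc, had 1006 with the mimic against 186 with the control, and SLC39A11 had 4007 with the mimic against 1161 with the control. SLC39A14, an importer of zinc and iron induced by inflammation, lay within 2-fold at 0.51 (1.22 with the deposited values). SLC39A4, the zinc importer of the intestine, lay at 0.27.

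Mitochondrial carriers, the largest family with 39 genes in the authors' table, had 6 higher and 4 lower members and a median of -0.04. The shares, 15.4% and 10.3%, were near or below the 14.0% and 14.3% of all genes. The pair of aspartate/glutamate exchangers that feed the malate-aspartate shuttle went opposite ways. SLC25A12 had 3594 with the mimic against 1288 with the control, 2.79-fold higher, and SLC25A13 had 976 with the mimic against 3811 with the control, 3.90-fold lower from a recomputed probe. SLC25A28, an iron importer of mitochondria, had 2327 with the mimic against 822 with the control, and SLC25A39, which imports glutathione, had 9746 with the mimic against 3569 with the control. SLC25A46, a protein of the outer membrane that affects mitochondrial shape, averaged 408 with the mimic against 1819 with the control over a pair of recomputed probes (-2.22 and -2.09). SLC25A5, an ADP/ATP exchanger, had a difference of -0.36, from a probe that the authors' table places on chromosome 6 while RefSeq places the gene on X. The ADP/ATP exchanger SLC25A6 had 0.87.

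The carriers of nucleosides and nucleotide sugars held 3 higher and 3 lower genes of 24. Each share was 12.5%, against 14.0% higher and 14.3% lower of all genes. SLC35B1, an ATP carrier of the endoplasmic reticulum, had 7625 with the mimic against 2273 with the control, 3.35-fold higher. SLC35A1, which brings sialic acid donors into the Golgi, had 1235 with the mimic against 474 with the control, with probe differences of 1.21 and 1.55. SLC35F5 was 2.77-fold lower, at 378 with the mimic against 1044 with the control. SLC29A1, the nucleoside carrier that takes up adenosine and gemcitabine, had 7143 with the mimic against 6589 with the control, 1.08-fold higher. Acid-base and anion carriers had the lowest group median, -0.42. Of 21, 1 was higher (4.76%, all genes 14.0%) and 2 were lower (9.52%, all genes 14.3%). These were the anion exchanger SLC4A3, at 455 with the mimic against 112 with the control, the sulfate carrier SLC26A2, at 1839 with the mimic against 4655 with the control, and SLC26A7, at 84.3 with the mimic against 241 with the control. All 7 members of the proton exchanger family 9 in the authors' table lay within 2-fold, between -0.48 (SLC9A8) and 0.41 (SLC9A7). Among them, SLC9A4 is counted from probes placed on other chromosomes than its gene. Outside the table, SLC9B2 had 79.0 with the mimic against 5.37 with the control, and SLC9A2 had 47.3 against 4.68. Both were near the floor with the control. SLC9A3, also outside it, went the other way near the floor on both arrays, at 4.82 with the mimic against 9.63 with the control.

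Families were divided in direction to unlike degrees. With 14.0% of all genes higher and 14.3% lower, a large family can hold both directions at those shares, so the tally is a description. Of the 44 families, 15 held at least 1 gene 2-fold higher and at least 1 gene 2-fold lower, 9 held higher genes only, 7 held lower genes only and 13 held neither. In 8 of the 15, the gene furthest below the control had a recomputed probe, as for families 2, 16, 22, 25, 30, 37, 38 and 39. The other 7 did not, as for SLC1A1 (2.63) beside SLC1A7 (-1.52) and SLC20A2 beside SLC20A1. Recomputed probes are the lowest carrier probes, so this tally follows from how low the lowest gene lay.

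Proteins that work with carriers were mixed. Of 18 listed partners, 17 were in the authors' table, 5 were at least 2-fold higher and 2 at least 2-fold lower, with a median of -0.11. Among all genes 14.0% were higher and 14.3% lower by as much. FXYD3, a modulator of the sodium pump, had 1838 with the mimic against 174 with the control. The pump subunit ATP1B1 had a difference of -0.79. NHERF1 and NHERF2, the scaffolds left out by the rule on symbols, went opposite ways, at 6449 with the mimic against 2181 with the control for NHERF1 and 1040 with the mimic against 4334 with the control, from a recomputed probe, for NHERF2. LAPTM4B, which recruits SLC7A5 to lysosomes, was 2.66-fold higher, and CHP1, a cofactor of proton exchangers, was 2.01-fold higher. BSG, the chaperone of lactate carriers, was 1.15-fold higher.

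The promoters of SLC12A7 and SLC22A4 are shown as those of the ion carrier furthest above the control and of the gene furthest below it. That of SLC27A5, the gene furthest above the control, is not shown. Each is the 250 bases upstream of a RefSeq start on GRCh38.p14, chr5:1112064-1112313 on the minus strand for SLC12A7 and chr5:132294144-132294393 on the plus strand for SLC22A4. Capitals mark CACGTG, the palindromic E-box that many basic helix-loop-helix factors recognise, so that both strands read alike. Of the pair of motifs searched, this one was picked from printed promoters that included these, and the other is given after it.
SLC12A7: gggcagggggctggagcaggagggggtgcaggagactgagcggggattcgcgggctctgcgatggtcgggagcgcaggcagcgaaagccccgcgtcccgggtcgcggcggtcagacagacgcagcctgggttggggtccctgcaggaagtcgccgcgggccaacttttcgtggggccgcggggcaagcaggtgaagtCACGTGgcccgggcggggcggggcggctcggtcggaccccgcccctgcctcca
SLC22A4: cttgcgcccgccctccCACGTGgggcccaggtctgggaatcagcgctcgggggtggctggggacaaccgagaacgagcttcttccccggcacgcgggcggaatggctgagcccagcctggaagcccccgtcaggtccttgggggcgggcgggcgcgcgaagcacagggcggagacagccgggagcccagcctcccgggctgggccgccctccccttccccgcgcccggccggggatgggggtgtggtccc
The motif was in 2228 of 35116 RefSeq promoter windows of this length (6.34%) and in at least 1 window of 2110 of 27305 genes (7.73%). Of the 198 carrier genes with a window, 31 (15.7%) held it, being 4 of 35 higher genes, 9 of 26 lower genes and 18 of 137 genes within 2-fold. The higher genes were SLC12A7, SLC16A9, SLC38A5 and SLC39A11, and the lower ones included SLC20A1, SLC36A1, SLC25A13, SLC26A2 and SLC39A8. SLC27A5 was not among the carriers found to hold it. The other motif, TGCNCNC, was searched on both strands and chosen likewise after the data were seen. It was in 49.1% of all windows and in at least 1 window of 53.0% of genes, and in 28 of 35 higher carriers, 15 of 26 lower carriers and 81 of 137 within 2-fold. The carriers counted are those in the authors' table, whereas the shares over all windows and genes were not limited to genes in it. No share over the genes of that table was computed, so carriers and all genes are not compared alike here. Neither motif was tested, and a match describes only the letters in a window.

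Carrier probes outside the authors' table of detected probes included several with signal on 1 array and near background on the other. The scanner files held 166 such probes for 145 carrier genes, 111 of which have no table probe. Furthest above the control were SLC10A4, SLC15A1 and SLC27A6, the last a fatty acid transport protein at 441 with the mimic against 4.73 with the control. They were followed by the riboflavin carrier SLC52A3, at 961 with the mimic against 22.5 with the control, and by SLC16A14, a relative of the lactate carriers, at 1075 with the mimic against 37.5 with the control. Furthest below it were SLC16A12, the amino acid carrier SLC38A4, at 4.31 with the mimic against 265 with the control, SLC47A1, which exports organic cations, at 4.35 with the mimic against 237 with the control, the urea carrier SLC14A1, at 5.17 with the mimic against 200 with the control, and the bicarbonate cotransporter SLC4A4, at 7.49 with the mimic against 233 with the control. A second probe of SLC38A4 had 34.0 with the mimic against 61.2 with the control, and one of SLC47A1 was at the floor, at 4.21 with the mimic against 4.13 with the control. In each of the 10 the dimmer array was under 10 times its negative-control median, so no fold is given.

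**Figure D5:**
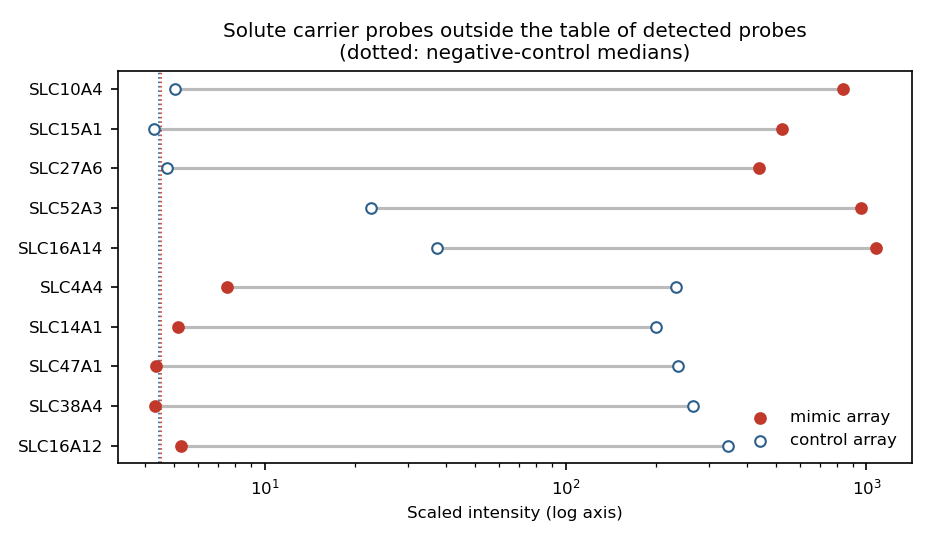
Scaled intensity (log axis) on the mimic array (filled) and the control array (open) of the 5 carrier probes furthest above and the 5 furthest below the control outside the authors' table, with dotted lines at the negative-control medians. The dimmer array of SLC10A4, SLC15A1, SLC27A6, SLC38A4 and SLC47A1 lies at or beside those lines.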

How the data were processed

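Raw intensity was deposited by the authors for every spot, with Feature Extraction 9.1 by Agilent, as the submitters' processing notes name it. Of all mimic spots, 95.5% were 1.2 times a number of 7 significant digits. The raw values are therefore not shown to be free of scaling between arrays. The authors' deposited table covers 20291 probes, flagged Detected in 5 of 5 samples. Of these samples, 3 are outside the arrays of this study and have no values here. Per the file headers it holds raw intensity, log2 normalized intensity and the fold (ratio) over control. How the normalization was done, and the genome build, are not stated. Of its Up-marked log2 mimic values, 90.8% equalled some control value plus 0.6 within 2e-06, against 0.676% with no shift. Spots of a probe were averaged as log2 intensity, the 75th percentile of 34127 non-control probes (1364 mimic, 894 control) was subtracted, and table probes were averaged per gene. Negative-control medians were 5.59 (mimic) and 3.60 (control). The number of arrays limits precision.

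All 249 symbols matched RefSeq GRCh38.p14 by gene identifier, and 5 have newer symbols. Roles follow family numbers, so a role group can hold carriers of other substrates. The creatine carrier SLC16A12, for example, is counted among the carboxylate and phosphate carriers. Text names the 12 carriers furthest from the control on each side, if brighter than the median gene and with probes of 1 sign, the 3 furthest per role, 14 fixed carriers, the 5 furthest probes each way outside the table, and relatives of these chosen after their values were seen. The non-carrier symbols, the floor of 10 times the negative-control median and the motifs were also chosen after the files were seen, and members and lists were chosen with earlier results of these data known. A few named genes are not reported here. The scaling was run on data simulated from the control array, with few changed probes, equally many in each direction. That checks the arithmetic only and cannot show how well the scaling suits these arrays. Python 3.11.15, pandas 2.3.3, numpy 2.4.6 and matplotlib 3.10.9 were used.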

Additional observations from a re-analysis of the deposited data

Results flagged for a closer look

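Among carrier probes outside the authors' table of detected probes, 2 lay beyond 100 times the median of the negative controls with the mimic and below 5 times it with the control. SLC15A1, the peptide carrier of the intestine, had a scaled intensity of 525 with the mimic against 4.30 with the control. SLC10A4, a relative of the bile acid carriers, had 836 with the mimic against 5.04 with the control. The same held for 132 of all 13836 probes outside the table. At a limit of 10 times for the control, SLC52A3 and SLC16A14 would join them. The opposite pattern was seen in 188 probes, 0 of them of carriers.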

How the results depend on the processing

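With 1 array per group no replicate could be left out, and signal over background sets the limit: 23 carriers with the mimic and 5 with the control were under 10 times the negative-control median. No paired analysis was possible because each group had 1 array. The 42 higher and 33 lower carriers became 80 and 12 with the deposited normalized values (all genes 30.9% and 6.83%), whose carrier median turned to 0.51 beside 0.58 for all genes. They became 65 and 56 of 360 genes with no detection filter (14.2% and 16.7%), 22 and 15 among genes above the median intensity (12.6% and 14.2%), 64 and 65 at 1.5-fold (23.5% and 24.7%), and 20 and 13 at 3-fold (6.72% and 7.09%), which change the genes counted or the threshold. Without recomputed probes 19 were lower (7.63%). Of 652 values of the 57 named genes under alternatives, 523 moved by less than the spread over spots, 129 moved further and 0 turned sign past 2-fold. Several alternatives, such as leaving out symbols that name no carrier, cannot change the value of a gene that stays in. The count of 523 is therefore no measure of stability. SLC38A1 (-0.80), SLC30A7 (-0.88) and SLC37A2 (-0.59) came within 2-fold without recomputed probes, SLC6A10P (0.31) with its brightest probe, and SLC22A15 (-0.94) and SLC26A7 (-0.73) with no detection filter. Centring the deposited values on all genes (44 and 30), leaving out probes on another chromosome (42 and 33) and membership by current symbol (48 and 37) were added after seeing the data.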

Other observations

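SLC16A12, a creatine carrier, had probes that disagreed. Its table probe had 74228 with the mimic against 108068 with the control, but the authors' table places that probe on chromosome 16, while RefSeq places the gene on 10. A probe outside the table, matched by accession, had 5.27 with the mimic against 346 with the control. Another outside the table was at the floor on both arrays, at 4.24 with the mimic against 4.16 with the control. In all, 7 table probes of 6 carrier symbols were placed on another chromosome than the gene, among them both probes of SLC9A4 (chromosomes 7 and 14, gene on 2).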
